A study of Mus musculus with 90 samples.

Results

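The mammalian core clock genes were followed through the liver RNA-seq data of mice on night-restricted feeding (NRF). The 10 genes are Arntl (also called Bmal1), Clock, Npas2, Cry1, Cry2, Per1, Per2, Per3, Nr1d1, and Nr1d2, out of 24312 gene symbols in the RNA table. They were chosen by name, and each is represented by the 1 RefSeq transcript of its symbol with the highest mean over all libraries. Of the 10 genes, 9 passed the filter of a mean of 0.5 RPKM (reads scaled to the length of the transcript and the depth of the library) in each of the 5 experiments, and Npas2 passed it in none.

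Each of the 54 RNA libraries came from the liver of a single mouse that had been on NRF, with food given at ZT12 (ZT, hours after lights on) and livers taken at ZT10 or ZT14. The NRF experiment had 3 groups of 2 C57BL/6N mice (ZT10, ZT14-unfed, and ZT14-fed), and its RNA was depleted of ribosomal RNA, whereas all other libraries were enriched for poly(A). In the injected mice (C57BL/6N, 10 weeks old, 4 per group), unfed mice received vehicle (PBS) and fed mice vehicle, dexamethasone (dex, a synthetic glucocorticoid, 1 mg/kg), S961 (a peptide antagonist of the insulin receptor), or dex plus S961, all given shortly before ZT12. The L-GRKO experiment compared 4 and 4 unfed adult GR fl/fl (Nr3c1 fl/fl) mice that had received AAV8 with CRE or, as controls, GFP under the liver-specific Tbg promoter, so all 8 carried the floxed allele and a virus. The L-IRSdKO experiment compared 4 mice with Irs1 fl/fl, Irs2 fl/fl, and Alb-Cre (10 weeks old, C57BL/6J) with 4 floxed mice without Cre, and all 8 were fed and injected with dex at 1 mg/kg, so it has neither an unfed nor a vehicle group. Both Cre drivers act in hepatocytes, and other liver cells keep the genes. The obesity experiment had 3 mice each of lean (chow) and diet-induced obese (DIO) C57BL/6 mice, unfed and fed, after 10 weeks of chow or of a high-fat diet begun at 5 weeks of age. In addition, lists of GR and FOXO1 peaks from unfed livers at ZT14 and of DNase I-hypersensitive sites (DHSs) from fed and unfed livers combined were used.

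The core clock is a feedback loop of transcription. ARNTL pairs with CLOCK, or with its relative NPAS2, and the pair binds E-boxes and switches on the Per, Cry, and Nr1d genes, whose PER and CRY proteins then inhibit the pair. NR1D1 and NR1D2 (REV-ERB alpha and beta), nuclear receptors that repress through ROR elements, restrain Arntl, Clock, and Cry1. In liver, feeding time, glucocorticoids, and insulin act on this loop beside the light cycle, and Per1 is a classic glucocorticoid target.

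The labelled deletions were checked first. Nr3c1, which encodes GR, stood at 12.8, 14.5, 13.2, and 16.2 RPKM in the AAV-GFP livers and at 3.93, 4.23, 4.14, and 5.35 in the AAV-CRE livers, a log2 difference of -1.58 ± 0.12 (SE, limma BH-adjusted p = 6.8e-05). Irs1 was at 2.21, 4.7, 4.73, and 4.5 RPKM in the floxed livers and at 0.149, 0.155, 0.321, and 0.17 in L-IRSdKO livers (-2.66 ± 0.25, limma BH-adjusted p = 0.000916), whereas Irs2 was lower by less than the spread (-0.79 ± 0.50, limma BH-adjusted p = 0.31) and its values overlapped. Depth, estimated from the step that 1 read makes in the values, was 26100000 to 38200000 reads per library in the NRF mice, 6490000 to 13500000 in the injected mice, and 16900000 to 62200000 in the obesity experiment. The estimates for the L-GRKO (16700000 to 54700000) and L-IRSdKO libraries (3650000 to 4490000) differ from the reads that the study lists. They are too low by a factor of about 2 for the L-IRSdKO libraries and too high by about that factor for most L-GRKO libraries. Some libraries stood apart. The 7 hepatocyte markers summed to 2790 to 3285 RPKM in the 8 libraries of the L-IRSdKO experiment and to 29540 to 77980 RPKM in the 46 others, so levels are compared within an experiment. Replicate 4 of the injected mice carries library numbers of a separate series in all 5 groups, and its deviations correlated between groups (r between 0.506 and 0.716 over 10 pairs). In the obesity experiment, replicate 1 of the unfed DIO mice was far from the other mice of its group in several clock genes. Where leaving these libraries out changed a call of a clock gene, the value without them is given beside the result. Each library is 1 mouse, so the p-values measure the spread between mice, and in whole liver, fewer cells of a type and less RNA per cell cannot be told apart.

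Chromatin around the clock genes was examined in the peak lists, which hold positions in mm9 and no heights. Within 50 kb of the transcription start site (TSS), 6 of the 10 genes had a GR peak, 7 a FOXO1 peak, and 10 a DHS, against 32.8%, 34.6%, and 86.5% of 22238 protein-coding genes. In total 16 GR peaks, 15 FOXO1 peaks, and 88 DHSs lay in these windows. Cry2, Per1, and Per2, all encoding repressors of the loop, had 4 GR peaks each. Cry1 had 2, and Clock and Nr1d1 had 1 each. By contrast, Arntl, Npas2, Per3, and Nr1d2 had 0 GR peaks within 50 kb. FOXO1 peaks were most numerous at Per2, Nr1d1, and Nr1d2 (3 each), followed by Cry1 and Per1 (2 each) and Arntl and Cry2 (1 each), and Clock, Npas2, and Per3 had 0. Of the 16 GR peaks, 4 shared at least 1 base with a FOXO1 peak (48.8% of all 10446 GR peaks did) and 13 with a DHS (81.6% of all). The 4 shared peaks lay 5.12 kb upstream of Cry1, 1.88 kb upstream of Per1, and 13.11 and 22.81 kb downstream of the Per2 TSS.

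**Figure D1:**
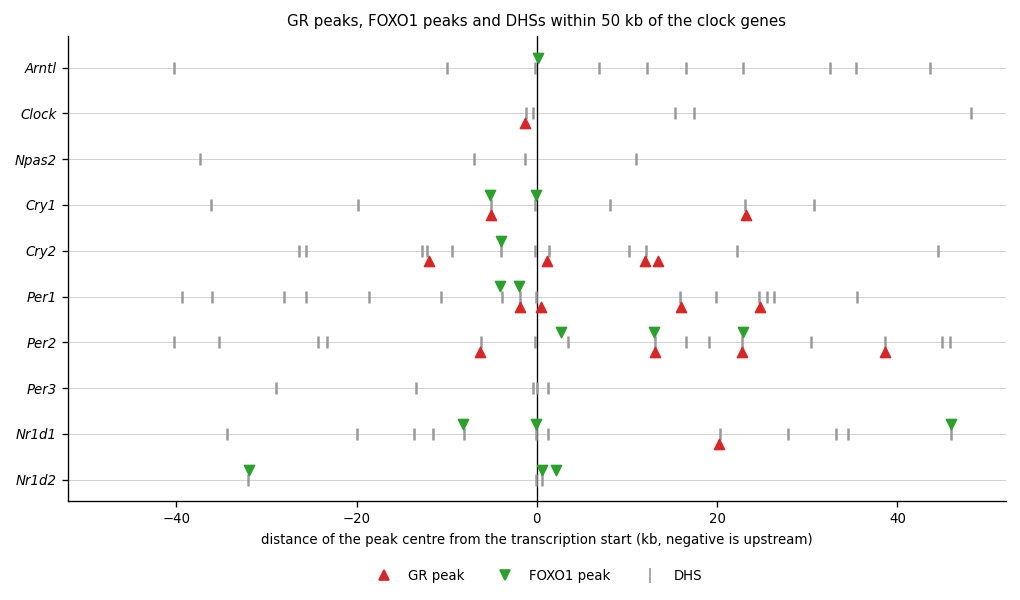
Positions of GR peaks (red upward triangles), FOXO1 peaks (green downward triangles), and DHSs (grey ticks) on the x axis as distance of the peak centre from the TSS in kb, with 1 row per clock gene and negative distances upstream. Cry2, Per1, and Per2 carry 4 GR peaks each, and Arntl, Npas2, Per3, and Nr1d2 carry none in this window.

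The sequences of these regions were searched on both strands for 7 short motifs. They were the E-box CACGTG, the D-box TTANGTAA, the ROR element core TAGGTCA, the cAMP response element TGACGTCA and the shorter TGACG within it, the forkhead motif GTAAACA, and a glucocorticoid response element (GRE), taken as GNACA, 3 bases of any kind, and TGTNC. A GRE of this form was present in 4 of the 16 GR peaks near clock genes and in 7.8% of all GR peaks. The forkhead motif was present in 5 of the 15 FOXO1 peaks (18.8% of all 8546) and the E-box in 3 (3.87% of all). A match describes the letters and does not show that a factor is bound through them.

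Per1 had 2 GR peaks with a GRE next to its start. The first lies 1.88 kb upstream of the TSS used here, in an intron of the annotated gene, overlaps a FOXO1 peak, and is shown joined with the DHS it overlaps, with the GRE and a full cAMP response element in capitals. The second lies 0.47 kb downstream of the TSS in an intron, with its GRE in capitals. The DHS at the Per1 promoter (centre 0.1 kb upstream) holds an E-box, in capitals. All sequences are of the mm9 plus strand.
Per1 upstream GR peak and DHS, chr11:68910484-68910715: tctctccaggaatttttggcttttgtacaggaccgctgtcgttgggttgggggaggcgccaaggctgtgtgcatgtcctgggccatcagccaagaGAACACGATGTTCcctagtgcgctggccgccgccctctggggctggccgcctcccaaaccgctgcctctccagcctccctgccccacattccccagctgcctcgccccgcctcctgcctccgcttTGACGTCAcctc
Per1 intronic GR peak, chr11:68912828-68913007: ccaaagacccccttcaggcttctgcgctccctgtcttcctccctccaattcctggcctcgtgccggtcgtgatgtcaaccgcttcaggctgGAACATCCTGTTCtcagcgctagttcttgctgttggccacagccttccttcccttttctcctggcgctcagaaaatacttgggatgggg
Per1 promoter DHS, chr11:68912267-68912434: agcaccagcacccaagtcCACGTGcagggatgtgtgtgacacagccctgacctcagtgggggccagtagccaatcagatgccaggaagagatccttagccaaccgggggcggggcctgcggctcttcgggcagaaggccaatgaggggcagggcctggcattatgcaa

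The other GREs lay in introns of Per2 and Cry2. In Per2, 22.81 kb downstream of the TSS in a peak shared with FOXO1, 2 matches overlap in 1 run of capitals. In Cry2, the match lies 13.45 kb downstream of the TSS, in a GR peak outside the DHSs.
Per2 intronic GR peak, chr1:93333008-93333187: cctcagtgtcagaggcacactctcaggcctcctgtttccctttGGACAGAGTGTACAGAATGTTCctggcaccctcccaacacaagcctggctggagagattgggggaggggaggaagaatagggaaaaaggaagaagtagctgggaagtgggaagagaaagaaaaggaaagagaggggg
Cry2 intronic GR peak, chr2:92260658-92260837: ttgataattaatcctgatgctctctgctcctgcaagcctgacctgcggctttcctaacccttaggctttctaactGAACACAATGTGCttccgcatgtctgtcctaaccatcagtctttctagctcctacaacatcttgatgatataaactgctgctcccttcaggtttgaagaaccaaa

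Among the FOXO1 peaks, 3 at gene starts of the other arms of the loop are shown. The peak 0.53 kb downstream of the Nr1d2 TSS, in an intron, holds 3 E-boxes, a D-box, and a forkhead motif (capitals). The peak 0.14 kb upstream of the Cry1 TSS holds a forkhead motif, read on the opposite strand (capitals). The peak 0.09 kb downstream of the Arntl TSS lies in an untranslated exon and holds a ROR element core and a forkhead motif. Only the 29 bases around its ROR element core (capitals) are shown, and the forkhead motif lies outside them. At Nr1d1, a FOXO1 peak was centred 0.08 kb upstream of the TSS and the only GR peak within 50 kb lay 20.23 kb downstream, outside the gene.
Nr1d2 intronic FOXO1 peak, chr14:19071019-19071198: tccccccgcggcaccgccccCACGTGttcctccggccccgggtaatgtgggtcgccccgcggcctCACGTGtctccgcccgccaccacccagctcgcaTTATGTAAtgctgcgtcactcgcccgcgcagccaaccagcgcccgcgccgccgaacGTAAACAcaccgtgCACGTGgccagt
Cry1 promoter FOXO1 peak, chr10:84647855-84648034: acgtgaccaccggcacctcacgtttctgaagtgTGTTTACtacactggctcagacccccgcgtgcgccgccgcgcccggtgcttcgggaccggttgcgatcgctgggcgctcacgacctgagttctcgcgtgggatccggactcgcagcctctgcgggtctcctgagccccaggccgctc
Arntl first exon, chr7:120351044-120351072: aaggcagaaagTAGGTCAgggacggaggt

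In the RefSeq promoter table (GRCm38.p6), 9 of the 10 genes matched, with 13 starts in all, and Per2 was not among them. In the 250 bases before these starts, the E-box was present at Cry1 and at 1 of the 2 starts of Per1 (6.02% of all 32851 promoters). The D-box was present at Per3 (2.06%) and the forkhead motif at Cry1 (3.17%).

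The level of the clock genes, compared per length as RPKM, was highest for Nr1d2 or Per2 in all 16 groups and lowest for Npas2. Npas2 did not exceed 0.107 RPKM in any library and was listed at 0 in every fed wild-type mouse given dex alone, so no fold is given for it. By group means, Arntl was next to last in 13 groups, and in the other 3 more genes than Npas2 stood below it. These were Per1, Per3, and Nr1d1 in ZT14-unfed mice of the NRF experiment, Nr1d1 in dex-injected Irs1/Irs2 floxed mice, and Per3 in fed DIO mice. In fed vehicle-injected mice the order began with Per2 (14.2, 16.7, 15.1, and 20.7 RPKM) and Nr1d2 (14.3, 17.4, 12.8, and 11.3), which overlapped. Per1 (6.22, 7.2, 9.61, and 12.5), Clock (10.4, 7.57, 6.75, and 7.87), Cry2 (6.49, 6.98, 7.82, and 9.33), Cry1 (8.73, 6.06, 5.88, and 6.58), and Nr1d1 (3.53, 5.51, 3.79, and 10.2) also overlapped with their neighbours. Arntl (1.5, 0.975, 1.32, and 2.01 RPKM) lay below every value of Per3 (4.13, 6.32, 5.21, and 5.32). Of the exon bases of Nr1d1, 9.67% overlap Thra on the opposite strand, and of those of Cry2, 3.75% overlap D930015M05Rik, and since the strand of counting is not given in the sources used here, reads there cannot be assigned.

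In the NRF mice, both the hour and the meal changed clock genes. Here, ZT14-unfed against ZT10 changed 4 of 9 clock genes at a limma BH-adjusted p under 0.01 (1.16% of all 10907 genes tested), with Arntl, Clock, and Cry1 higher and Per3 lower. ZT14-fed against ZT14-unfed changed only Per2 among the 9 (0.99% of all genes). Per2, a repressor of the loop, was at 3.98 and 4.01 RPKM in unfed and at 9.79 and 10.5 RPKM in fed livers, a log2 difference of 1.24 ± 0.10 (limma BH-adjusted p = 0.00199). At an adjusted p under 0.05 instead, Arntl, Cry1, and Nr1d2 were also lower (-0.86, -0.49, and -0.57) and Per3 higher (0.51) after the meal. The share of all genes under 0.05 is not given here, so these calls are not shown to be particular to clock genes. In vehicle-injected and lean mice, the meal differences were -0.30 and 0.35 for Arntl and -0.29 and 0.01 for Cry1. They were -0.19 and -1.16 for Nr1d2, and -0.12 and -0.04 for Per3. Of these genes, only Nr1d2 kept its direction in both, and only its lean difference passed the threshold. Those of the obese mice are given below. ZT14-fed against ZT10 changed 5 (1.71% of all genes), with Arntl (1.21), Clock (0.94), Cry1 (1.09), and Per2 (1.35) higher and Nr1d2 (-1.16) lower. With 2 mice per group, leaving out any 1 of the 4 libraries compared lost all 5 calls of the last comparison and 1 or more of the 4 calls of the first, and that of Per2 between fed and unfed mice was lost without either fed library.

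In vehicle-injected mice, where feeding was compared in 4 and 4 poly(A) libraries, 0 of 9 clock genes passed an adjusted p of 0.05, against 3.13% of all 11251 genes. Per2 had the largest difference. It stood at 8.94, 9.89, 9.6, and 15.7 RPKM in unfed mice and at 14.2, 16.7, 15.1, and 20.7 RPKM in fed mice (0.60 ± 0.19, limma BH-adjusted p = 0.090), and the overlap came from replicate 4 of the unfed mice. With replicates 1 to 3 only, the difference was 0.66 (limma BH-adjusted p = 0.024), and with a term for the library series it was 0.60 (limma BH-adjusted p = 0.0196). Kupffer cell markers were higher in sum in the fed mice (69.83 to 103.3 RPKM against 49.75 to 62.21, with 2 of 6 genes above every unfed value), and their part in the result was not tested.

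The question of the dex injections was which meal responses a maintained glucocorticoid level alters. In fed mice, dex raised Cry2, which encodes a repressor of the ARNTL-CLOCK pair, and no other clock gene passed an adjusted p of 0.05, so that 1 of 9 was called against 3.19% of all genes tested. Cry2 was at 6.49, 6.98, 7.82, and 9.33 RPKM with vehicle and at 16.2, 14.5, 12.5, and 12 RPKM with dex (log2 difference 0.81 ± 0.13, limma BH-adjusted p = 0.00215). The groups did not overlap, and the call held without each library in turn. With replicates 1 to 3 only, the difference of Cry2 was 0.97 (limma BH-adjusted p = 0.00111), and with a term for the library series Per3 and Nr1d1 were called besides Cry2, 3 of 9 against 9.74% of all genes. The Cry2 gene has 4 GR peaks within 50 kb, as have Per1 and Per2, and a GRE lies in GR peaks of all 3.

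Nr1d1, which encodes the repressor of Arntl, spread widely within both groups. Its values were 3.53, 5.51, 3.79, and 10.2 RPKM with vehicle and 1.2, 1.34, 2.48, and 6.81 RPKM with dex (-1.01 ± 0.36, limma BH-adjusted p = 0.135). The highest mouse of each group was replicate 4, and within replicates 1 to 3 the groups did not overlap. In those 6 mice, with the other groups in the same fit, the difference was -1.16 ± 0.20 (limma BH-adjusted p = 0.00454, with 7.28% of genes called). With a term for the library series in place of leaving replicate 4 out, the adjusted p of limma was 0.0199.

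The other repressors moved less with dex. Per1 was at 6.22, 7.2, 9.61, and 12.5 RPKM with vehicle and 9.66, 12.1, 12.6, and 19.7 with dex (0.58 ± 0.28, limma BH-adjusted p = 0.28), so the groups overlapped and the test was not passed. Per3 stood at 4.13, 6.32, 5.21, and 5.32 RPKM and, with dex, at 3.33, 3.71, 4.28, and 3.58 RPKM (-0.43 ± 0.13, limma BH-adjusted p = 0.072). With a term for the library series Per3 was called (-0.43, limma BH-adjusted p = 0.0364), and with replicates 1 to 3 only it was not (-0.41, limma BH-adjusted p = 0.135). Clock, the partner of Arntl, was lower in every dex-injected mouse (5.43 to 6.66 RPKM) than in every vehicle-injected one (6.75 to 10.4 RPKM), with a log2 difference of -0.40 ± 0.15 that did not pass the test (limma BH-adjusted p = 0.17). Cry2 and Clock were the 2 of 9 genes whose groups did not overlap, a pattern found in 10.5% of all genes. For Arntl, Cry1, Per2, and Nr1d2 the log2 differences lay between -0.28 and -0.19. The Arntl value of dex replicate 4, 0.399 RPKM, rests on about 10 reads, and with replicates 1 to 3 only the difference of Arntl was 0.11, against -0.28 with all 4, neither past the threshold.

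**Figure D2:**
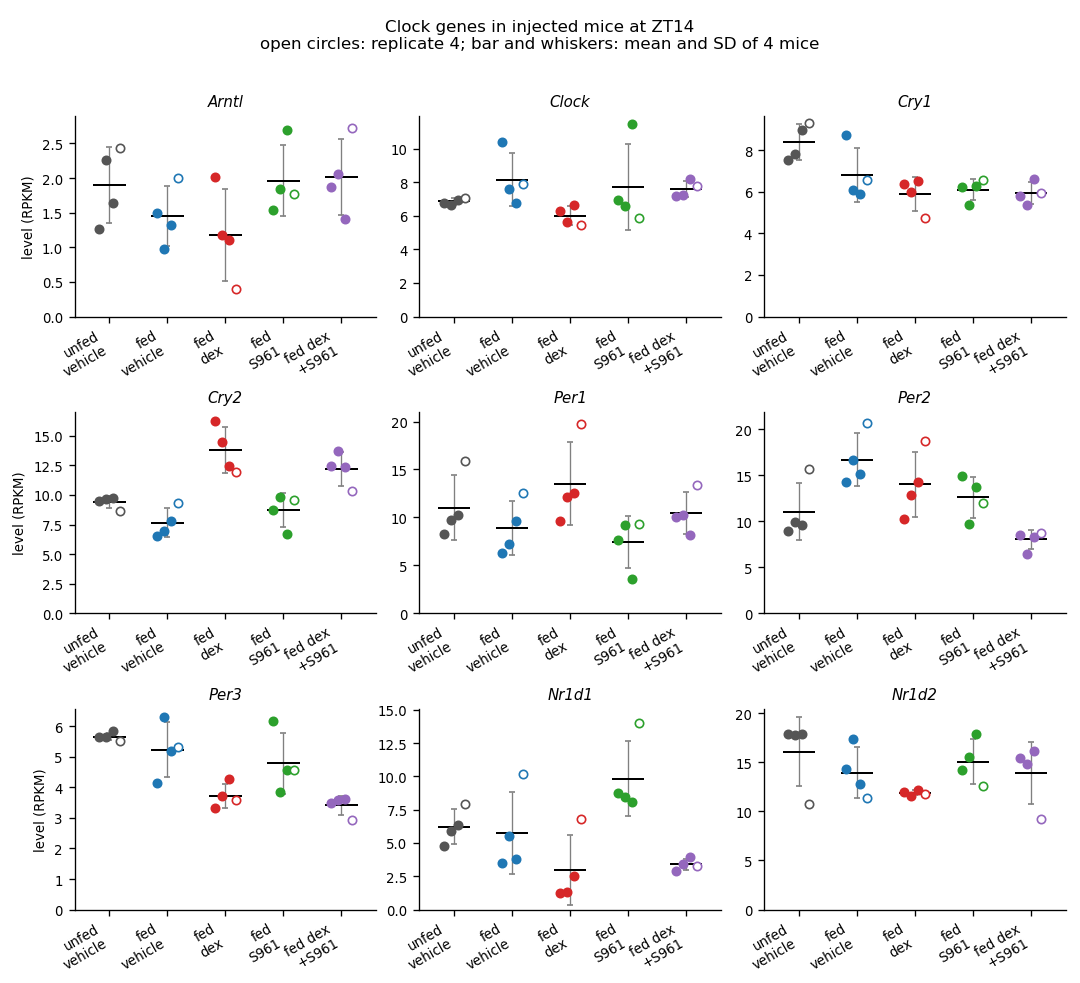
Level in RPKM (y axis) of 9 clock genes in each injected mouse at ZT14, by group (x axis), with filled circles for replicates 1 to 3, open circles for replicate 4, and bars and whiskers for the mean and SD of 4 mice. Cry2 is at 12 to 16.2 RPKM with dex and 6.49 to 9.33 RPKM with vehicle, and Per2 is lowest with dex plus S961, at 6.47 to 8.75 RPKM.

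S961 was given to ask what the meal does when insulin signaling is blocked. No clock gene passed an adjusted p of 0.05 against fed vehicle (0 of 9, with 1.9% of all genes called). Nr1d1 was at 8.76, 8.45, 8.07, and 14 RPKM with S961, above 3 of the 4 vehicle-injected mice, and the log2 difference was 0.80 ± 0.36 (limma BH-adjusted p = 0.32). In replicates 1 to 3 alone it was 0.92 ± 0.20 (limma BH-adjusted p = 0.0307, with 1.98% of all genes called). With a term for the library series it was 0.80 and did not pass (limma BH-adjusted p = 0.078). Per2 was at 14.9, 9.72, 13.7, and 12 RPKM with S961 (-0.40 ± 0.19, limma BH-adjusted p = 0.35), with overlap. The remaining 7 genes differed by -0.28 to 0.34, and the 95% interval of Cry1, for example, ran from -0.39 to 0.13.

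With dex and S961 together, 3 of 9 clock genes changed against fed vehicle, compared with 10.6% of all genes tested, and all 3 calls held when any single library was left out. Cry2 was higher, at 12.5, 13.8, 12.4, and 10.3 RPKM (0.65 ± 0.13, limma BH-adjusted p = 0.00458). Per2 was lower, at 8.5, 6.47, 8.31, and 8.75 RPKM, each below the lowest fed vehicle mouse (14.2 RPKM), with a log2 difference of -1.01 ± 0.19 (limma BH-adjusted p = 0.0023). Per3 was lower as well, at 3.51, 3.6, 3.61, and 2.94 RPKM (-0.54 ± 0.13, limma BH-adjusted p = 0.0109), although with quantile normalization (-0.38, adjusted p = 0.065 in limma) or with replicates 1 to 3 only (-0.47, adjusted p = 0.070 in limma) it did not pass. The median log2 difference of all genes was -0.14 in this comparison and -0.01 after scaling to a common median ratio, with which the 3 genes kept their calls. The Kupffer cell markers were lower in sum too (53.6 to 62.34 RPKM against 69.83 to 103.3, with 2 of 6 genes below every vehicle value), and their part in the result was not tested.

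The combination was also set beside each agent alone. Against dex alone Per2 was lower by 0.75 on the log2 scale (SE 0.19, limma BH-adjusted p = 0.0365), the only one of 9 clock genes called (2.96% of all genes), and the 4 values lay below the 4 with dex (10.3, 12.8, 14.2, and 18.7 RPKM). That call was lost without any of the 4 dex plus S961 mice or without dex replicate 2, 3, or 4, with adjusted p-values of limma between 0.060 and 0.142, while the difference stayed between -0.79 and -0.60. With replicates 1 to 3 only, 2 of 9 passed (4.55% of all genes), Per2 (-0.64, limma BH-adjusted p = 0.0318) and Nr1d1, which was higher by 0.89 (limma BH-adjusted p = 0.0236) and by 0.43 (limma BH-adjusted p = 0.65) with all 4 replicates. The fit with a term for the library series called 1 of 9 (6.59% of all genes), Per2 (limma BH-adjusted p = 0.00508), and not Nr1d1 (0.43, limma BH-adjusted p = 0.343). Against S961 alone, 0 of 9 passed (1.91% of all genes). In that comparison Nr1d1 (2.87, 3.44, 3.93, and 3.28 RPKM) lay below every mouse given S961 alone, with a log2 difference of -1.38 ± 0.36 (limma BH-adjusted p = 0.0539). Cry2 (0.47), Per2 (-0.61), and Per3 (-0.42) did not overlap either, so 4 of 9 genes were without overlap, against 6.85% of all genes. With a term for the library series Nr1d1, Cry2, and Per2 passed (limma BH-adjusted p = 0.00288, 0.047, and 0.0224), against 4.4% of all genes. With replicates 1 to 3 only, Nr1d1 (-1.20 ± 0.20), Cry2 (0.60), and Per2 (-0.67) did, against 2.5% of all genes.

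Fed mice given both agents were also set beside unfed vehicle mice. Of the 9 genes, Per3 was lower (5.65, 5.66, 5.84, and 5.53 RPKM in the unfed mice, log2 difference -0.66 ± 0.13, limma BH-adjusted p = 0.00914), and 2.32% of all genes were called. Per2, at 8.94, 9.89, 9.6, and 15.7 RPKM in the unfed mice, was above every mouse with both agents but did not pass (-0.41 ± 0.19, limma BH-adjusted p = 0.39). With replicates 1 to 3 only, the adjusted p of Per3 was 0.058 in limma. Cry1, at 5.8, 5.38, 6.63, and 5.94 RPKM with both agents, lay below every unfed vehicle mouse (7.54 to 9.3 RPKM), with a log2 difference of -0.47 ± 0.12 (limma BH-adjusted p = 0.055), and it was called with a term for the library series (limma BH-adjusted p = 0.0324). In this comparison 6 of 9 genes did not overlap, Clock, Cry1, Cry2, Per2, Per3, and Nr1d1, against 10.6% of all genes. The interaction of dex and S961, which asks whether their joint difference departs from the sum of the single ones on the log2 scale, was passed by 0 of 9 clock genes and 0 of all genes (513 genes had an unadjusted p under 0.05 in limma), and the estimates for clock genes lay between -0.38 for Nr1d1 (95% interval -1.45 to 0.69) and 0.42 for Clock (-0.04 to 0.88). These comparisons share the fed vehicle, dex, or S961 mice with each other.

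After deletion of GR in the liver of unfed mice, Per1 was lower and Nr1d1 higher, 2 of 9 clock genes at an adjusted p under 0.05, against 6.68% of all 11649 genes. Per1, whose GR peaks are shown above, was at 13.2, 9.62, 14.9, and 9.63 RPKM in AAV-GFP livers and at 7.61, 5.09, 7.42, and 5.45 RPKM in AAV-CRE livers (-0.84 ± 0.17, limma BH-adjusted p = 0.019). Nr1d1 was at 4.59, 7.69, 7.59, and 12.7 RPKM in AAV-GFP and at 17.7, 15.8, 24.8, and 14.3 RPKM in AAV-CRE livers (1.16 ± 0.26, limma BH-adjusted p = 0.0241). Neither pair of groups overlapped. The call of Per1 was lost without AAV-CRE replicate 2 (-0.74, adjusted p = 0.059 in limma), and that of Nr1d1 without AAV-GFP replicate 2 or AAV-CRE replicate 1, 2, or 3 (1.00 to 1.21, adjusted p between 0.0502 and 0.0724 in limma). Without the filter on low values neither passed (adjusted p = 0.058 and 0.078 in limma).

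The activators and the other members moved less in the AAV-CRE livers. Clock was at 5.42, 3.55, 3.69, and 3.8 RPKM in AAV-GFP and at 2.17, 2.67, 2.91, and 2.96 RPKM in AAV-CRE livers, apart from each other but short of the threshold (-0.53 ± 0.15, limma BH-adjusted p = 0.060). The 3 genes without overlap, Clock, Per1, and Nr1d1, compare with 12.8% of all genes. Per3 had a log2 difference of 0.53 ± 0.16 (limma BH-adjusted p = 0.082) and Nr1d2 of 0.38 ± 0.13 (limma BH-adjusted p = 0.129). Arntl was at 1.75, 0.516, 1.36, and 0.58 RPKM in AAV-GFP livers, so that 2 of the 4 lay within the range of the AAV-CRE livers (0.392 to 0.746 RPKM). Cry2, the gene raised by dex, was at 11.9 to 14 RPKM in AAV-GFP and 12 to 13.9 RPKM in AAV-CRE livers, with a difference of -0.04 (95% interval -0.25 to 0.17). Red blood cell markers were higher in the AAV-CRE livers (330.5 to 622.6 RPKM in sum against 223.3 to 288.6, 3 of 3 genes), and their part in these results was not tested. With median-ratio scaling, the split of all calls turned from 519 higher and 259 lower to 297 higher and 371 lower, whereas Per1 and Nr1d1 kept their calls.

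**Figure D3:**
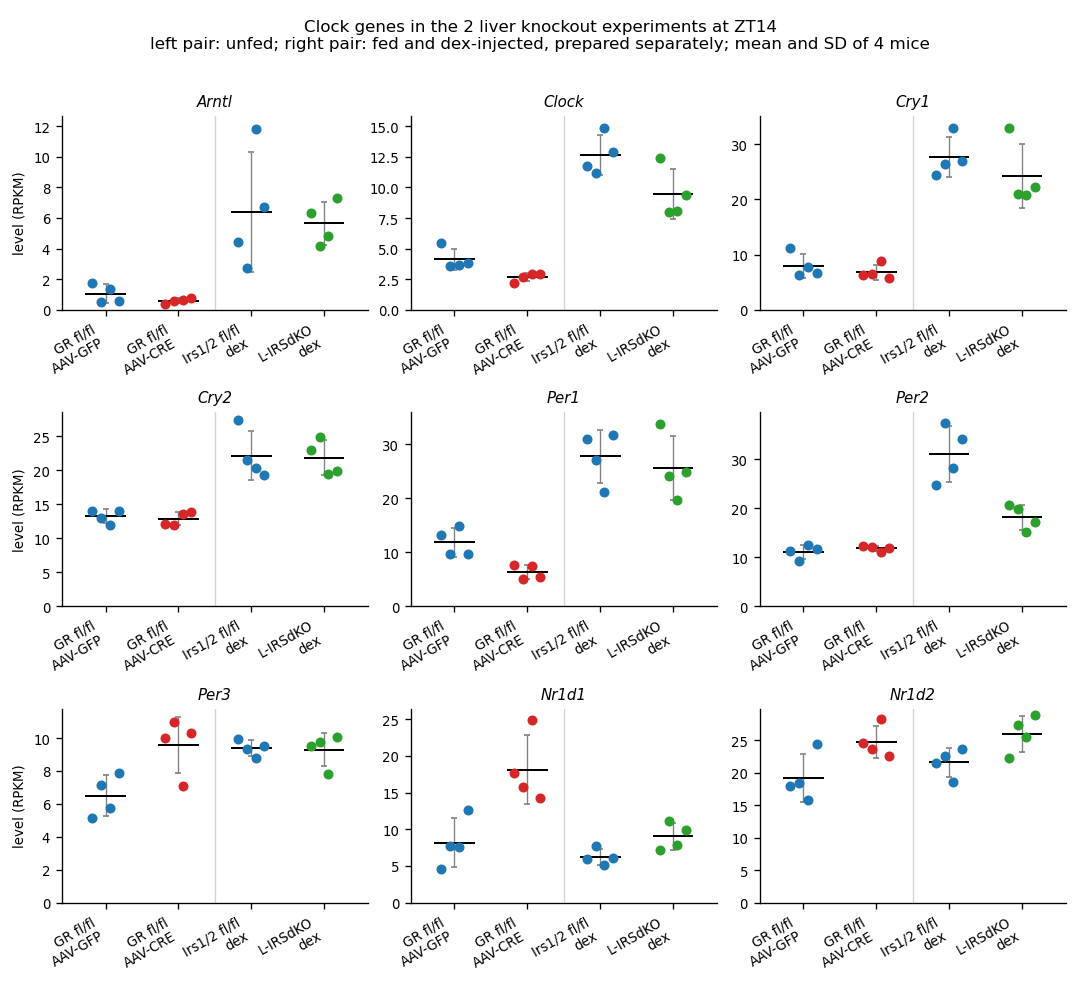
Level in RPKM (y axis) of 9 clock genes in each mouse of the L-GRKO experiment (left pair, unfed) and the L-IRSdKO experiment (right pair, fed and given dex), with bars and whiskers for the mean and SD of 4 mice. In AAV-CRE livers Per1 is at 5.09 to 7.61 RPKM and Nr1d1 at 14.3 to 24.8 RPKM, and in L-IRSdKO livers Per2 is at 15.1 to 20.6 RPKM.

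In fed, dex-injected mice, Per2 was lower in L-IRSdKO than in floxed livers, 1 of 9 clock genes against 17.4% of all 12966 genes. Per2 was at 24.7, 37.4, 28.1, and 34.2 RPKM in floxed and at 20.6, 19.8, 15.1, and 17.2 RPKM in L-IRSdKO livers (-0.75 ± 0.15, limma BH-adjusted p = 0.0122), and it was the only clock gene without overlap (21.7% of all genes). Its call held without each library in turn. Nr1d1 was at 5.96, 7.66, 5.11, and 6.13 RPKM in floxed and at 7.22, 11.1, 7.85, and 9.91 RPKM in L-IRSdKO livers (0.50 ± 0.17, limma BH-adjusted p = 0.071). Clock was at 11.8, 11.2, 14.9, and 12.9 RPKM against 12.4, 7.99, 8.11, and 9.39 RPKM (-0.42 ± 0.15, limma BH-adjusted p = 0.095).

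The L-IRSdKO mouse that kept Clock and Cry1 within the floxed range was replicate 1 in both genes. Cry1 was at 33.0 RPKM in that mouse and at 20.9, 20.8, and 22.2 RPKM in the other L-IRSdKO mice, against 24.5 to 33.0 RPKM in floxed livers. Without this mouse, 5 of 9 clock genes passed, against 23.3% of all genes in the same fit. Clock (-0.55), Cry1 (-0.36), and Per2 (-0.81) were lower and Nr1d1 (0.59) and Nr1d2 (0.33) higher. The mouse was singled out by its Clock and Cry1 values, so that fit is no separate test of these genes. With each library left out in turn, the count of clock genes called ran from 1 to 5. Arntl spread widely among the floxed mice, with 4.43, 2.71, 11.8, and 6.69 RPKM, and its difference of -0.02 had a 95% interval of -0.86 to 0.82. Cry2, Per1, and Per3 differed by -0.13 to -0.01, and Nr1d2, with a difference of 0.26 ± 0.11, did not pass (limma BH-adjusted p = 0.13). Cholangiocyte markers were lower in L-IRSdKO livers (1.652 to 2.911 RPKM in sum against 3.439 to 5.433, 2 of 4 genes), as were red blood cell markers (58.67 to 85.85 against 85.92 to 148.3, 1 of 3 genes), and their part in the result was not tested.

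**Figure D4:**
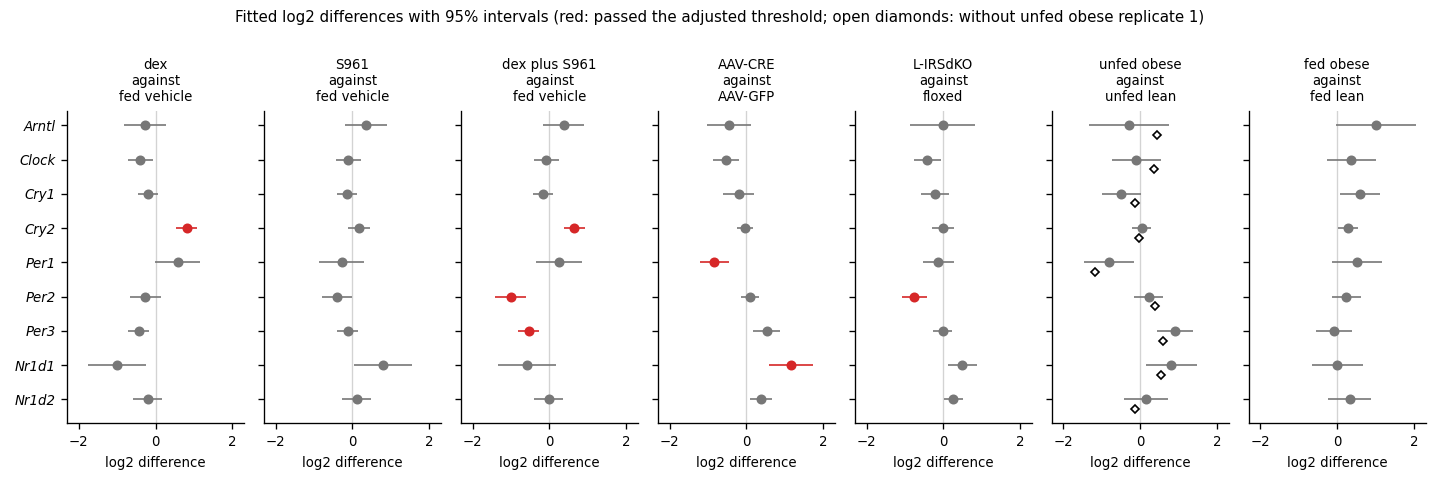
Fitted log2 differences (x axis) of 9 clock genes (y axis) in 7 comparisons, with lines for 95% intervals, red points for genes that passed the BH-adjusted threshold in limma, and grey points for the others. Red points mark Cry2 with dex, Cry2, Per2, and Per3 with dex plus S961, Per1 and Nr1d1 with AAV-CRE, and Per2 in L-IRSdKO livers, and open diamonds give the unfed obese comparison without replicate 1.

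In the lean mice of the obesity experiment, the meal raised Per2 and lowered Nr1d2, 2 of 9 clock genes at an adjusted p under 0.01, against 10.2% of all 11434 genes. Per2 was at 6.34, 9.21, and 10.1 RPKM in unfed and 16.0, 14.7, and 14.4 RPKM in fed lean mice (0.80 ± 0.17, limma BH-adjusted p = 0.00743). Nr1d2, a repressor through ROR elements, was at 18.2, 20.7, and 17.1 RPKM in unfed and 6.78, 9.58, and 8.07 RPKM in fed lean mice (-1.16 ± 0.26, limma BH-adjusted p = 0.00951). Per1 was at 11.1, 14.5, and 14.2 RPKM and, after the meal, 5.19, 7.71, and 3.61 RPKM, without overlap and just short of the threshold (-1.25 ± 0.30, limma BH-adjusted p = 0.0125). Clock, Cry2, Per1, Per2, and Nr1d2, 5 of 9, did not overlap between unfed and fed lean mice, as against 43.3% of all genes. Leaving out any 1 of the 6 lean mice lost the call of Nr1d2, and any but unfed replicate 3 lost that of Per2, with adjusted p-values of limma between 0.018 and 0.0381. Endothelial markers were lower in fed than in unfed lean livers (39.3 to 46.29 RPKM in sum against 54.35 to 65.6, 4 of 5 genes), and their part in the result was not tested.

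In the obese mice, 0 of 9 clock genes passed an adjusted p of 0.01 between unfed and fed livers (1.22% of all genes), although 7 of 9 did not overlap (27.8% of all genes). Per2 was at 7.81, 10.1, and 12.2 RPKM in unfed and at 17.9, 17.2, and 18.4 RPKM in fed obese mice (0.82 ± 0.17, limma BH-adjusted p = 0.0182). Cry1 was at 4.19, 9.9, and 8.38 RPKM in unfed and at 18.2, 14, and 14.9 RPKM in fed obese mice (1.09 ± 0.24, limma BH-adjusted p = 0.0222), while the fed lean mice (9.71 to 10.6 RPKM) were within the range of the unfed lean mice (9.04 to 11.5 RPKM). Per3 (-1.03), Nr1d1 (-1.18), and Nr1d2 (-0.98) were on the lower side after the meal, with adjusted p-values of limma between 0.0192 and 0.0434. Arntl was at 0.112, 2.63, and 1.89 RPKM in unfed and 4.65, 4.55, and 5.02 RPKM in fed obese mice (1.66 ± 0.47, limma BH-adjusted p = 0.0561).

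Unfed obese replicate 1 was the extreme mouse of its group for all 9 tested clock genes. It had the lowest value of the group for Arntl (0.112 RPKM, about 8.9 reads), Clock (1.76 against 5.6 and 4.96), Cry1, and Per2, and the highest for Cry2, Per1 (12.1 against 5.3 and 5.93), Per3 (15.3 against 7.3 and 7.9), Nr1d1 (18.9 against 10.1 and 11.1), and Nr1d2 (31.1 against 16.3 and 17.3). Without it, the meal differences in obese mice were 0.94 for Arntl, 0.75 for Cry1, 0.66 for Per2, -0.71 for Per3, -0.91 for Nr1d1, and -0.69 for Nr1d2, and 0 of 9 passed 0.01 (0.533% of all genes), with 4 of 9 under 0.05. The share of all genes under 0.05 is not given here. Without this mouse, which contributes to the shared spread, the lean meal called 3 of 9 clock genes (13.4% of all genes), the added one being Per1 (-1.25, limma BH-adjusted p = 0.00257). The mouse was singled out by its clock gene values. The fits without it, here and in the comparisons below, are therefore no separate test of these genes.

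Between unfed obese and unfed lean mice, the differences of Per3 and Per1 were the largest in size, with 0 of 9 clock genes past an adjusted p of 0.01 (0.77% of all genes). Per3 was at 15.3, 7.3, and 7.9 RPKM in obese and 4.69, 5.13, and 4.91 RPKM in lean mice (0.90 ± 0.22, limma BH-adjusted p = 0.0391), and without replicate 1 the difference was 0.58 ± 0.12 (limma BH-adjusted p = 0.0122). Per1 was at 12.1, 5.3, and 5.93 RPKM in obese and 11.1, 14.5, and 14.2 RPKM in lean mice (-0.82 ± 0.30, limma BH-adjusted p = 0.136). Without replicate 1, the 2 remaining obese mice lay below all lean mice for Per1, with a log2 difference of -1.17 ± 0.24 (limma BH-adjusted p = 0.0147). Nr1d1 had no overlap (0.80 ± 0.30, limma BH-adjusted p = 0.144, and 0.54 without replicate 1), as did Per3, so 2 of 9 genes were apart, against 22.9% of all genes. The sign of Arntl turned with that mouse, from -0.30 with it to 0.42 without it, and neither passed. In this comparison endothelial markers were lower (30.92 to 39.3 RPKM in sum against 54.35 to 65.6, 4 of 5 genes), as were hepatocyte markers (51320 to 55990 against 58370 to 66780, 3 of 7 genes), and their part was not tested.

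In the fed state, the largest differences between obese and lean mice were those of Arntl and Cry1. Arntl was at 4.65, 4.55, and 5.02 RPKM in fed obese and at 2.05, 1.47, and 2.97 RPKM in fed lean mice (1.01 ± 0.47, limma BH-adjusted p = 0.26). Cry1 was at 18.2, 14, and 14.9 RPKM against 10.6, 9.71, and 10.4 RPKM (0.59 ± 0.24, limma BH-adjusted p = 0.20). Together with Clock, Cry2, and Per2, they made up 5 of 9 clock genes without overlap (32.6% of all genes), each higher in the obese mice. None of the 9 passed 0.01, and 0 of all genes did, although 2284 had an unadjusted p under 0.05 in limma. When unfed obese replicate 1, which enters only through the shared spread, was left out, the same differences had adjusted p-values of 0.0226 for Arntl and 0.021 for Cry1 in limma, and 0.612% of all genes passed 0.01. Hepatocyte markers were lower in sum in fed obese livers (49110 to 52230 RPKM against 57740 to 61620). Of the 7 genes, 3 were below every fed lean value and 1 was above. Cholangiocyte markers were lower in sum too, and the part of both was not tested.

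**Figure D5:**
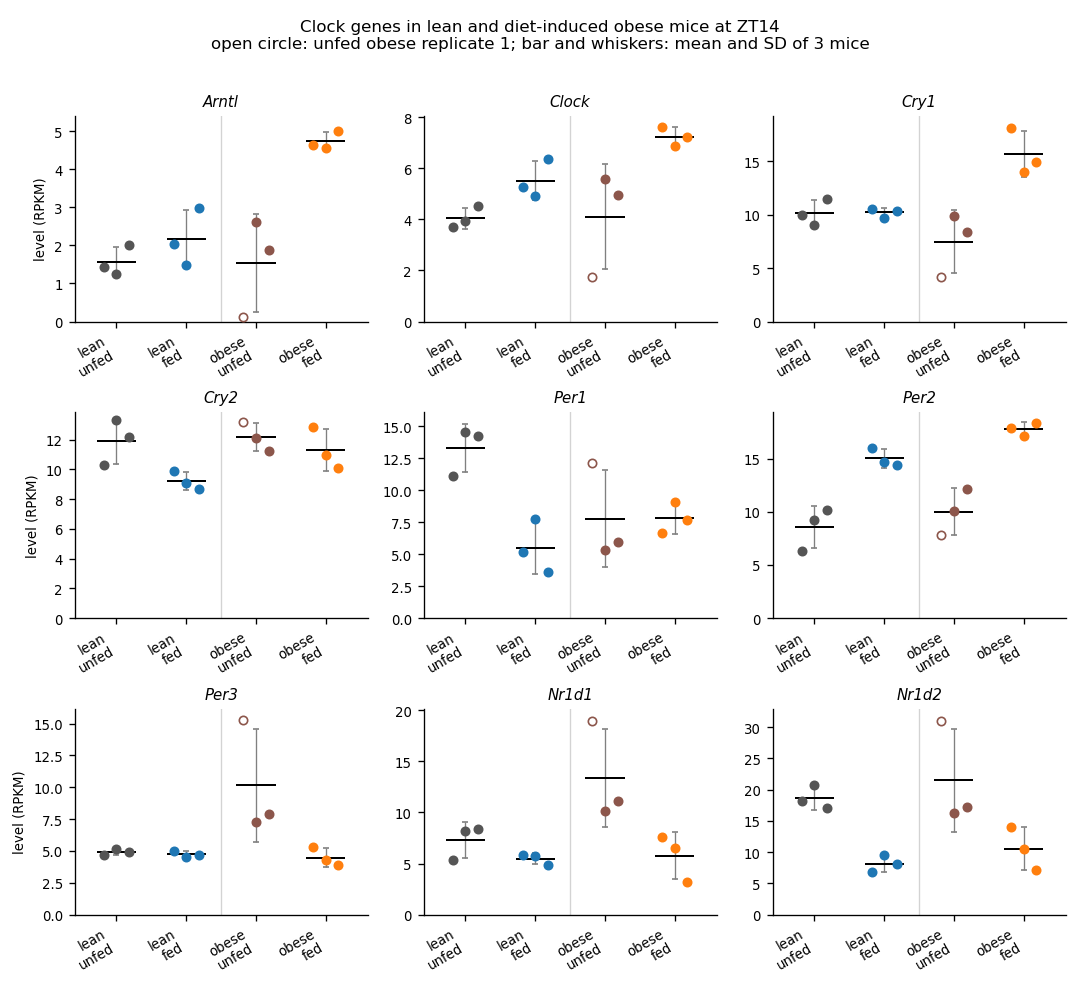
Level in RPKM (y axis) of 9 clock genes in each lean and diet-induced obese mouse, unfed and fed (x axis), with the open circle for unfed obese replicate 1 and bars and whiskers for the mean and SD of 3 mice. The open circle is the lowest of its group for Arntl (0.112 RPKM) and the highest for Per3 (15.3 RPKM), and the fed obese mice are above the fed lean mice for Arntl and Cry1.

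Whether the meal acted differently in obese and lean mice was tested as an interaction, which 0 of 9 clock genes passed (0.131% of all genes at an adjusted p under 0.01). The estimates were largest for Per1 (1.33 ± 0.42, limma BH-adjusted p = 0.178), Arntl (1.31 ± 0.67, limma BH-adjusted p = 0.386), Cry1 (1.08 ± 0.33, limma BH-adjusted p = 0.171), and Per3 (-0.99 ± 0.31, limma BH-adjusted p = 0.173). Without unfed obese replicate 1 that of Per1 was 1.68 ± 0.33 (limma BH-adjusted p = 0.0411) and that of Arntl 0.59. For Per2 it was 0.02 with a 95% interval of -0.51 to 0.55, the meal difference being 0.80 in lean and 0.82 in obese mice.

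Of 15 other clock genes, 13 passed the filter, and not all of those called are named here. In the NRF mice, 3 of the 13 were called in ZT14-unfed against ZT10, 2 between fed and unfed livers, and 1 in ZT14-fed against ZT10 (1.16%, 0.99%, and 1.71% of all genes). With dex, 1 of the 13 changed (3.19% of all genes), Ciart, a repressor of the ARNTL-CLOCK pair (1.01 ± 0.15, limma BH-adjusted p = 0.0012), and with S961 0 did. With both agents against fed vehicle, 2 of 13 (10.6% of all genes), Ciart (0.87) and Nfil3 (0.86), a D-box repressor, were higher. Against S961 alone 3 of 13 changed (1.91% of all genes), 1 higher (Ciart, 1.10) and 2 lower (among them Bhlhe40, -0.75), and against unfed vehicle 1 did (Ciart, 0.75, with 2.32% of all genes). In AAV-CRE livers, 4 of 13 changed (6.68% of all genes), 3 higher and 1 lower, among them Ciart, which fell by 1.41 (limma BH-adjusted p = 0.00204), and Bhlhe40 (0.54) and Tef (0.39), which rose. In L-IRSdKO livers, 2 of 13 changed (17.4% of all genes), 1 higher and 1 lower, the latter being Bhlhe40, an E-box repressor (-0.77, limma BH-adjusted p = 0.0121). In lean mice the meal changed 3 of 13 (10.2% of all genes), with Rora lower (-0.87) and 2 higher (among them Bhlhe40, 0.74), while in obese mice and between diets 0 of 13 passed 0.01.

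The median log2 difference of the 9 clock genes was -0.26 with dex (-0.10 over all genes tested), -0.10 with S961 (-0.08), -0.08 with both agents against fed vehicle (-0.14), -0.04 in AAV-CRE livers (0.08), and -0.02 in L-IRSdKO livers (0.03). Between obese and lean mice it was 0.03 unfed (0.07 over all genes) and 0.32 fed (0.01).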

How the data were processed

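Liver RNA was measured in 54 libraries. The authors used STAR to align to mm9 and deposited RPKM values on 35707 RefSeq IDs, made from reads counted per transcript and scaled to its length and to the library, and they called regulated genes with DESeq2. Peaks came from HOMER. The authors kept GR and FOXO1 peaks concordant between replicates and called DHSs on the pooled DNase libraries, and the deposited peak lists give positions only, with no score. Versions of these tools are not given in the sources used here.

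Of the IDs, 35407 had a symbol, and the ID with the highest mean was kept for each of 24312 symbols. Values were analysed as log2(RPKM + 0.5), and all log2 differences are on that scale, which understates changes of low genes. Genes whose mean in the experiment reached 0.5 RPKM were tested. Each experiment was fitted with limma 3.58.1 (R 4.3.3) with a variance trend, all its groups together, without a block, and p-values were BH-adjusted over all genes tested. Thresholds were those of the study, 0.01 for the NRF and obesity experiments and 0.05 for the others. The fits were tested on simulated data. No experiment had same-numbered replicates that deviated together in every pair of every number. Those numbered 4 in the injected mice did so in all 10 pairs (r between 0.506 and 0.716), and the main fits hold no term for that library series. Peaks, motifs, and correlations were handled with Python 3.11.15 (numpy 2.4.6, pandas 2.3.3, scipy 1.17.1). The TSS is the start of the longest protein-coding transcript of GENCODE for mm9, and peaks were placed by their centres. Overlap means at least 1 shared base.

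All 10 clock genes are named in each comparison, with Nr3c1, Irs1, and Irs2 as checks of the labels, a list of 15 other clock genes by counts (with values for those called, some of which are not reported here), and for Arntl, Per1, and Nr1d1 the 3 genes most like them. Members and lists were chosen with earlier results of these data known. As alternatives, the pseudocount was set to 0.1 or 1, the filter was dropped or raised to a mean of 2 RPKM, values were quantile-normalized or rescaled by median ratios, RPKM was averaged over a gene's RefSeq IDs, the variance trend was dropped, replicate numbers or the library series entered the fit, the groups of a comparison were fitted by themselves, the other threshold was used, peaks were taken within 20 or 100 kb of the TSS, overlap was asked of at least 50% of a GR peak, and libraries were left out one at a time. A fit of replicates 1 to 3 of the injected mice was added after seeing the data. RPKM corrects for depth and length but not for a few abundant genes. The dose of S961 (44 nM per mouse in the labels) and the time of AAV injection read differently in the study's methods. H3K27Ac and occupancy per condition were not analysed here, and 0 columns of the RNA table were left unused.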

Additional observations from a re-analysis of the deposited data

Results flagged for a closer look

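In groups of 4 mice, 6 of 81 sets of clock gene values held 1 mouse far from the other 3 by Dixon's criterion on the log2 scale, where chance flags about 1 in 20. In 4 of the 6, the mouse was replicate 4 of the injected mice. Nr1d2 was at 10.79 RPKM in unfed vehicle replicate 4 and at 17.8 to 17.95 RPKM in the other unfed vehicle mice, and at 9.251 RPKM in dex plus S961 replicate 4 against 14.82 to 16.2 RPKM. In the same dex plus S961 mouse Per3 was at 2.942 RPKM, below the 3.507 to 3.61 RPKM of the others. Nr1d1 was at 14 RPKM in S961 replicate 4 and at 8.068 to 8.755 RPKM in the other mice given S961. Cry1 was at 32.96 RPKM in L-IRSdKO replicate 1 against 20.81 to 22.2 RPKM, and Clock at 5.42 RPKM in AAV-GFP replicate 1 against 3.552 to 3.801 RPKM. The obesity and NRF groups, with 3 or 2 mice, were not examined in this way.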

How the results depend on the processing

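For the clock gene differences with an adjusted p under 0.05, 337 of 391 values under other settings kept their direction and side of the threshold, 39 lost the call, 15 gained it, and 0 turned direction, and with 1 library left out 141 of 196 kept their call and 55 lost it. The number of clock genes called moved as follows, and unless a value or the setting's construction shows it, the cause was not tested. Where no share of all genes under the same setting stands beside a count, the count is not shown to be particular to clock genes. With no filter on low values it was 1 for ZT14-unfed against ZT10 and 0 for both other NRF comparisons, dex plus S961 against dex, AAV-CRE, and the lean meal. With the compared groups alone it was 0 for ZT14-unfed against ZT10 and for dex plus S961 against dex, 1 against S961, and 3 against unfed vehicle. With the other threshold it was 0 for dex plus S961 against dex, AAV-CRE, and L-IRSdKO, 5 for ZT14-fed against ZT14-unfed and for the obese meal, 4 for the lean meal, and 1 for unfed obese against lean. With a mean of at least 2 RPKM, dex plus S961 called 1 against S961 and 2 against unfed vehicle, and with a pseudocount of 1 or median-ratio scaling 1 against S961. The lean meal called 1 with median-ratio scaling, quantile normalization, or no variance trend. The labels do not say what a shared replicate number marks, and with a replicate block the counts were 2 for both comparisons with ZT10, 1 for the vehicle meal, 2 for dex, for dex plus S961 against S961 and against unfed vehicle, and for L-IRSdKO, and 1 for the lean meal. With a term for the library series they were 1 for the vehicle meal (9.21% of all genes), 3 for dex (9.74%) and for dex plus S961 against S961 (4.4%), and 2 against unfed vehicle (4.85%). With replicates 1 to 3 only they were 1 for the vehicle meal (6.38% of all genes) and for S961 (1.98%), 2 for dex (7.28%) and for dex plus S961 against dex (4.55%), 3 against S961 (2.5%), and 0 against unfed vehicle (2.56%). With 1 library left out, the counts ran from 0 to 3 for ZT14-unfed against ZT10 and for AAV-CRE, 0 to 0 for ZT14-fed against ZT10, 0 to 1 for ZT14-fed against ZT14-unfed, the vehicle meal, dex plus S961 against dex, and the lean meal, 1 to 2 for dex (2 without fed vehicle replicate 1 or dex replicate 4), and 1 to 5 for L-IRSdKO (5 without L-IRSdKO replicate 1). Counts of genes with a nearby peak were 5, 7, and 10 within 20 kb and 7, 7, and 10 within 100 kb for GR, FOXO1, and DHSs. Over all tested clock genes, 7 of 72 differences turned direction with replicates 1 to 3 only (Arntl with dex to 0.11) and 5 of 45 without unfed obese replicate 1 (Arntl in unfed obese against lean mice to 0.42), and 0 of these 12 had passed the threshold. Low levels limit Npas2, which was not tested, and Arntl, with about 8.9 reads in its lowest library.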

Other observations

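Arntl, the obligate partner of CLOCK and NPAS2, varied between mice of the same group, and 5 of 8 other clock genes varied with it. The share of all genes that vary with Arntl was not computed, so the count is not shown to be particular to clock genes. Deviations from the group mean (log2 scale) were correlated with those of Arntl over the 54 mice, for 8 genes, with p from 100000 permutations within groups and BH adjustment over the 8. Clock (Pearson r = 0.731, adjusted permutation p = 0.00024, Spearman rho = 0.723, adjusted permutation p = 8e-05) and Cry1 (r = 0.678, adjusted permutation p = 0.00084, rho = 0.6, adjusted permutation p = 0.00096) were higher where Arntl was higher. Per3 (r = -0.563, adjusted permutation p = 0.00654, rho = -0.426, adjusted permutation p = 0.0175), Nr1d2 (r = -0.515, adjusted permutation p = 0.00283, rho = -0.417, adjusted permutation p = 0.0175), and Nr1d1 (r = -0.446, adjusted permutation p = 0.0115, rho = -0.365, adjusted permutation p = 0.0342) were lower. Cry2 (r = -0.10), Per1 (-0.30), and Per2 (0.08) did not pass. The unadjusted permutation p-values were 3e-05 for Clock, 0.00021 for Cry1, 0.00327 for Per3, 0.00106 for Nr1d2, and 0.0072 for Nr1d1. Without the 2 mice farthest from the median for Arntl (unfed DIO replicate 1 and floxed replicate 3 of the L-IRSdKO experiment), r was 0.634, 0.569, -0.436, -0.4, and -0.409 for Clock, Cry1, Per3, Nr1d2, and Nr1d1. The deviations were still taken from group means that include these 2 mice. These values are therefore not free of them and do not show what r would be in their absence. Within experiments, r for Clock ran from 0.369 in the 20 injected mice to 0.984 in the 12 mice of the obesity experiment, which include unfed DIO replicate 1. In the 6 NRF mice Per3, Nr1d1, and Nr1d2 had positive values (0.671, 0.57, and 0.877), opposite to those of the other experiments. With 2 mice per NRF group, the deviations of a group mirror each other, so these 6 mice give fewer independent values. Genes measured in 1 library share its depth and preparation, and the time of death of each mouse within ZT14 is not given in the sources used here, so their part was not tested.

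Genes most like 3 clock genes were found by Pearson r over the 54 libraries, centred on each experiment, among 7162 genes. For Arntl they were Clpx (0.751), Cpt2 (0.732), and Insig2 (0.705), for Per1 Pim3 (0.804), Zfp36 (0.79), and Klf15 (0.768), and for Nr1d1 Wdr81 (0.781), Fzd4 (0.766), and Tmem131l (0.765). The libraries share groups and depth, so these values are descriptions.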
